A study of Homo sapiens with 6 samples.

Results

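The semaphorin, plexin and ephrin guidance genes are 53 protein-coding genes of the 58735 genes measured, chosen by name alone. They are 20 semaphorins, 9 plexins, the neuropilins NRP1 and NRP2, 14 Eph receptors and 8 ephrins. RNA was measured in 6 libraries of H9, an established human embryonic stem cell line, at day 0 and on day 2, day 3, day 4, day 6 and day 30 of its differentiation into cardiac organoids, which are small cultures that form heart cell types. The libraries carried no other treatment in the labels, each time point had 1 library made from 10 harvested organoids, and no genotype beyond the H9 line was given. The line is 1 line, so nothing here speaks for other lines or donors. All values are FPKM, that is reads per kilobase of gene, scaled by a denominator for each library. Because they are per length, levels of different genes can be set side by side, but only roughly. For each of the 53 members the length is that of all its annotated exons joined, whether or not these cells use them. Rankings, shares and sums across genes carry this limit.

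Semaphorins are secreted or membrane-bound signals that act through plexin receptors. Most class 3 members, which are secreted, also need a neuropilin as a co-receptor, and neuropilins bind VEGF proteins as well. Ephrins are held on the cell surface, the A type by a lipid anchor and the B type by a membrane span, and they bind Eph receptor tyrosine kinases on neighbouring cells, where both sides can signal. The pathways were first described in growing axons. In mice, SEMA3C with its plexin and neuropilin receptors takes part in forming the cardiac outflow tract, and EFNB2 and EPHB4 mark arteries and veins.

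The 4 windows below are the start-site regions of members whose level was highest on day 3 or day 4 and whose courses the results turn on. They are RefSeq promoters on GRCh38.p14, 250 bases before to 50 after the annotated start, printed on the strand of the gene, which is the minus strand for each. The RefSeq start lay 64 bases from the start in the deposited table for PLXNA2, 18 for SEMA3G, 142 for PLXND1 and 18 for EPHA2. Capitals mark GC boxes (GGGCGG) and GATA cores (NGATAA) on either strand.
PLXNA2, chr1:208244335-208244634: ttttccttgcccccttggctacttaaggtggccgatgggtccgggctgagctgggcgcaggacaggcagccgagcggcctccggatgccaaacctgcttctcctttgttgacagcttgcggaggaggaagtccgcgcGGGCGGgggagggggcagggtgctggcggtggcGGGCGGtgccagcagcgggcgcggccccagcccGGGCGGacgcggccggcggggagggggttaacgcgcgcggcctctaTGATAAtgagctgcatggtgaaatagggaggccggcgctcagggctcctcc
SEMA3G, chr3:52445054-52445353: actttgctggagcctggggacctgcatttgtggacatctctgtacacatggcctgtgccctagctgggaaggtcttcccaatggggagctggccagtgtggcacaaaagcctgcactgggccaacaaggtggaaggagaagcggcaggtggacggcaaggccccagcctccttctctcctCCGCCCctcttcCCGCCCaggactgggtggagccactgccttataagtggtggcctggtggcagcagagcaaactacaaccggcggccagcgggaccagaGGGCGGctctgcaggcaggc
PLXND1, chr3:129606627-129606926: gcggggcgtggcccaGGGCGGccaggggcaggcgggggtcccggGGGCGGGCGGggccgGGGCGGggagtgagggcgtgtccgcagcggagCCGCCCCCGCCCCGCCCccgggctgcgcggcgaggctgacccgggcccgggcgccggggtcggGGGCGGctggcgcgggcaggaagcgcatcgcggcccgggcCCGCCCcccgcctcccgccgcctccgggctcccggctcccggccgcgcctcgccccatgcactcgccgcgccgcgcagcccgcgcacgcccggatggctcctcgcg
EPHA2, chr1:16156020-16156319: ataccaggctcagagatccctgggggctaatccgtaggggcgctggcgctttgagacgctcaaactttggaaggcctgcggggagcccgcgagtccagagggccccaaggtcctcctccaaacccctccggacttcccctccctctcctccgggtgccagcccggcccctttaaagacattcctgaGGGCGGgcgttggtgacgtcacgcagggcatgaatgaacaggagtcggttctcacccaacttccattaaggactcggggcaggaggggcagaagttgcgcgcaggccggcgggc
Overlapping matches were counted separately, and GC boxes numbered 3 in PLXNA2, 3 in SEMA3G, 9 in PLXND1 and 1 in EPHA2. The only GATA core of the 4 windows was in PLXNA2. The T-box half-site AGGTGTNA was in none of them, and the LEF and TCF core CTTTGAN was found once, in EPHA2. For 47 of the 53 members the table holds at least 1 window, 74 windows in all. A GC box was in 74.3% of these, against 57.0% of the 21021 windows of protein-coding genes and 45.0% of all 35116 windows. A GATA core was in 14.9% of the members' windows, against 18.5% and 22.7%. The T-box half-site was in 1.35%, against 2.32% and 2.61%, and the LEF and TCF core in 8.11%, against 10.9% and 12.8%. A match is a description of letters and not a binding site.

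Recovered reads totalled between 13500887 and 15526924 per library. Since no day was measured again in another library, differences lack a replicate check and no p-value is given. A gene was called higher or lower between days when log2(FPKM + 1) differed by at least 1 and the FPKM was at least 1 in either library, and rose and fell are used only for calls. Each fold is the ratio of the FPKM values, followed by its 95% interval in parentheses, an exact conditional binomial interval on the reads. The intervals cover counting error only, not variation between cultures or the choice of scaling, and reads copied by PCR are not independent molecules.

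The members took 0.266% of reads at day 0, 0.355% at day 2, 0.538% at day 3, 0.512% at day 4, 0.468% at day 6 and 0.421% at day 30. The labels call every library embryonic stem cell, but 7 pluripotency genes summed to 4.28 FPKM at day 30, with NANOG and PRDM14 at 0, against 1446 FPKM at day 0. In bulk libraries such as these, fewer cells of a type and less RNA per cell cannot be told apart. At least 1 FPKM was reached on at least 1 day by 51 members and on all 6 days by 33. EPHA5 and EPHA10 stayed below 1 FPKM throughout. The summed level of the 53 members was 393 FPKM at day 0, 521 at day 2, 755 at day 3, 706 at day 4, 607 at day 6 and 745 at day 30. The sum at day 30 was 1.23 times that at day 6 as deposited, but 0.903 times with total read scaling and 0.992 times with TPM scaling. In at least 1 of the 6 comparisons 36 members were called, and 17 in none. The leading gene changed along the course: SEMA6A at day 0, EPHA2 at day 2, SEMA3F at day 3, SEMA3G at day 4, and PLXNB2 at days 6 and 30.

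**Figure D1:**
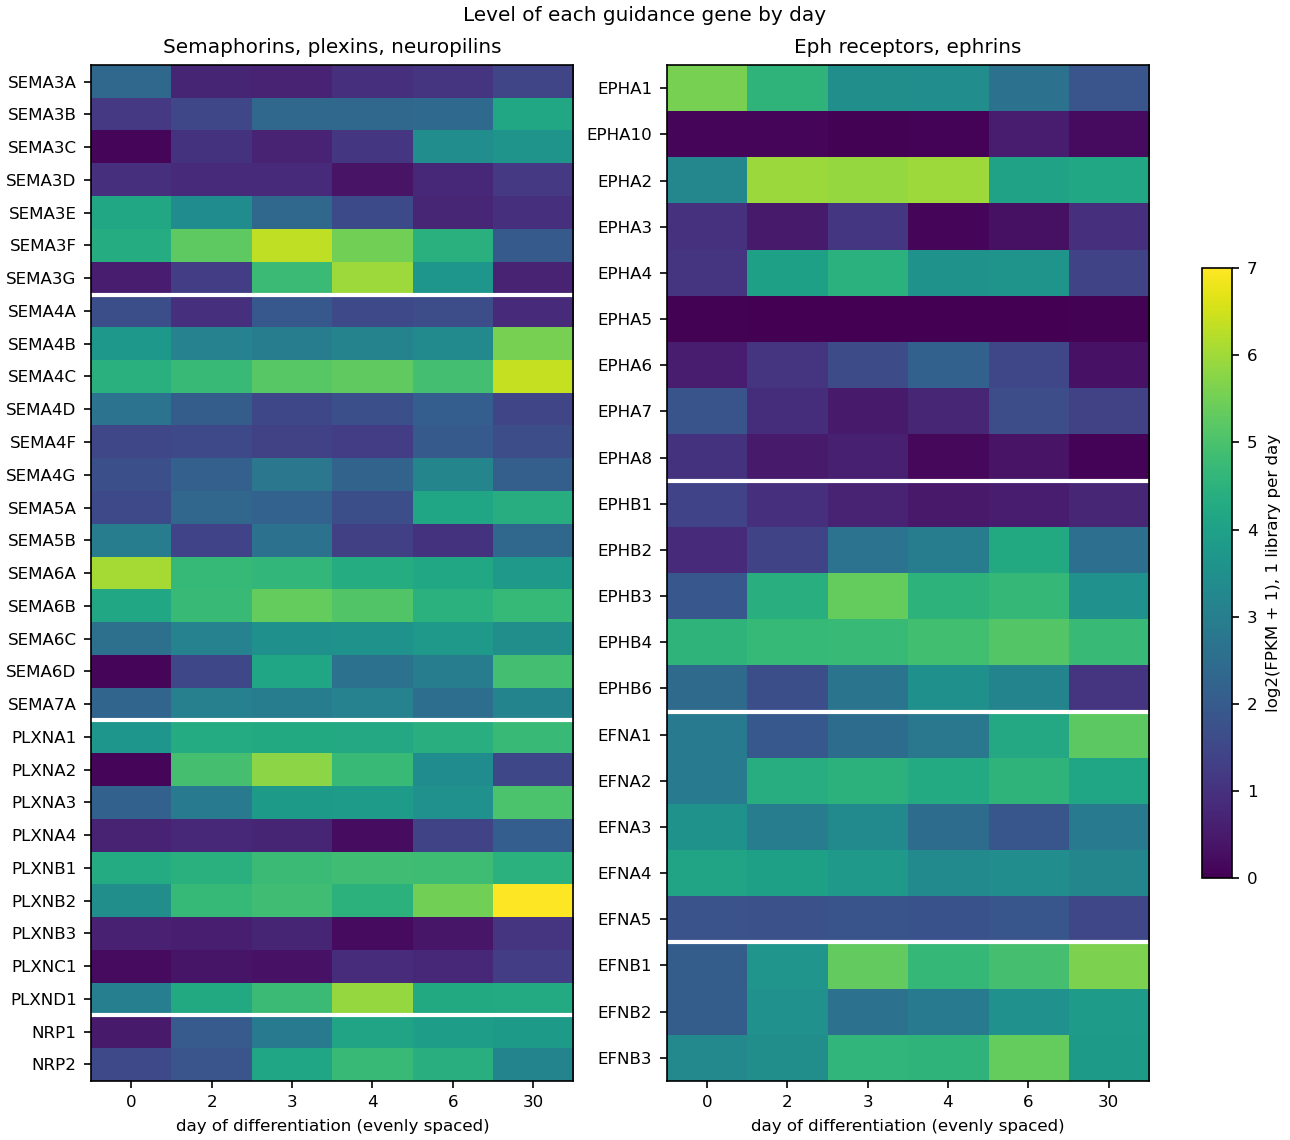
Level of each of the 53 guidance genes as log2(FPKM + 1), coloured from 0 to 7, by day of differentiation on the horizontal axis (days evenly spaced, 1 library each), with white lines between families. SEMA6A and EPHA1 are brightest at day 0, SEMA3F, SEMA3G, PLXNA2 and PLXND1 at day 3 or 4, and PLXNB2, SEMA4C and SEMA4B at day 30.

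Among the secreted class 3 semaphorins, SEMA3F or SEMA3G had the highest level up to day 6 and SEMA3B at day 30. SEMA3F (ENSG00000001617, chromosome 3, 50155045 to 50189075, plus strand), which signals through NRP2, had 19.3, 37.2, 79.7, 44.6, 20.7 and 2.95 FPKM on the 6 days in order. Its level was highest at day 3 and lowest at day 30. SEMA3G (ENSG00000010319, chromosome 3, 52433053 to 52445085, minus strand), another NRP2 ligand, had 0.481, 1.43, 26.1, 61.8, 11.7 and 0.614 FPKM on the same days. It was near its day 0 level again at day 30, with 38 reads at day 30 and 35 at day 0. SEMA3E, which binds PLXND1 without a neuropilin, had 17.0, 9.58, 4.09, 1.97, 0.694 and 0.961 FPKM. It was highest at day 0, when PLXND1 was at its lowest. SEMA3A, the NRP1 ligand first known for collapsing axon growth cones, had 4.02, 0.663, 0.632, 0.972, 1.12 and 1.75 FPKM and was also highest at day 0.

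Other class 3 genes had their highest deposited level at day 30, though that of SEMA3C moved to day 6 with total read or TPM scaling. SEMA3C, the outflow tract semaphorin, had 0.0659, 1.03, 0.601, 1.15, 9.72 and 11.3 FPKM, with only 6 reads at day 0. SEMA3B, which binds neuropilins, had 1.24, 1.79, 4.10, 4.07, 4.25 and 17.4 FPKM. SEMA3D ranged between 0.290 and 1.25 FPKM and was called in no comparison. SEMA3E, SEMA3F and SEMA3G together made up 85.4% of the summed class 3 level at day 0, 94.7% at day 3 and 12.5% at day 30. SEMA3B and SEMA3C made up 3.04% at day 0, 4.05% at day 3 and 79.2% at day 30. Both groups were picked with these levels known, so the shares restate the courses above and are no separate support. Within the first group the courses differed, and SEMA3A and SEMA3D are in neither. The class sum was 43.0, 52.5, 116, 115, 48.9 and 36.2 FPKM on the 6 days.

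**Figure D2:**
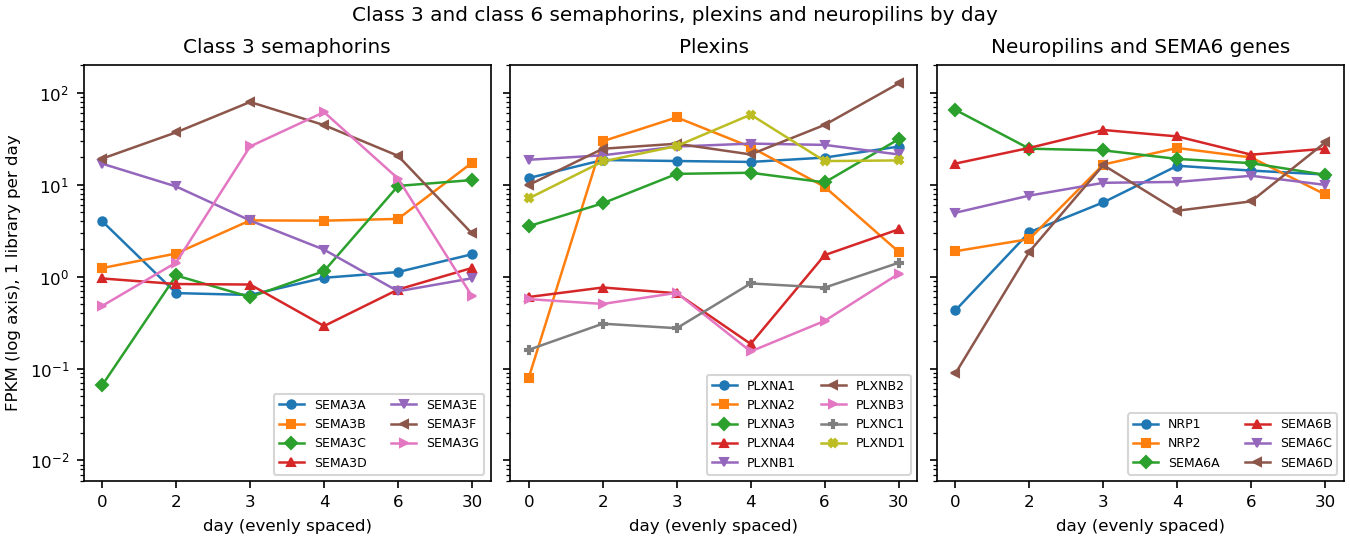
FPKM (log axis) of the class 3 semaphorins, the plexins, and the neuropilins with the SEMA6 genes, by day (evenly spaced, 1 library each). SEMA3G reaches 61.8 FPKM at day 4 between 0.481 FPKM at day 0 and 0.614 FPKM at day 30, PLXNA2 stands at 54.1 FPKM at day 3, against 0.0799 FPKM at day 0, and PLXNB2 ends at 127 FPKM.

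Of the 13 membrane-bound semaphorins, SEMA6A (chromosome 5, 116443616 to 116574934, minus strand), a transmembrane ligand of A-type plexins, led at day 0. It had 65.4, 24.7, 23.7, 19.1, 17.2 and 12.8 FPKM on the 6 days, which is 5.24% of the summed level of classes 4 to 7 at day 30, against 45.2% at day 0. It was highest at day 0 and lowest at day 30. Its relative SEMA6D (ENSG00000137872, chromosome 15, 47184101 to 47774223, plus strand), a PLXNA1 ligand studied in the chick heart, had 0.0885, 1.87, 16.4, 5.22, 6.60 and 28.96 FPKM. It had 1 high point at day 3 and a higher one at day 30, and 11 reads at day 0. SEMA6B lay between 17.0 and 39.5 FPKM and SEMA6C between 4.96 and 12.5 FPKM, and neither was called in any comparison.

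SEMA4C, a ligand of PLXNB2, had 20.9, 25.1, 35.1, 38.3, 29.3 and 82.1 FPKM. SEMA4B had 12.2, 7.54, 6.86, 7.79, 8.96 and 46.3 FPKM. For both, day 30 was the highest day, and together they held 52.5% of the summed level of classes 4 to 7 at day 30, against 22.9% at day 0. SEMA4D, the ligand of PLXNB1, had 5.29, 3.19, 1.86, 2.29, 3.28 and 1.78 FPKM. SEMA4G had 2.28, 3.42, 5.91, 3.72, 8.12 and 3.34 FPKM, but 22.3% of its exonic bases are shared with MRPL43 on the opposite strand, which stood between 7.09 and 11.3 FPKM, and their reads may not be separable. SEMA4A (0.819 to 2.83 FPKM) and SEMA4F (1.43 to 2.92 FPKM) were low throughout.

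SEMA5A and SEMA5B are transmembrane proteins with thrombospondin repeats. SEMA5A had 1.90, 3.97, 3.63, 2.21, 16.8 and 19.6 FPKM, so that its days 6 and 30 stood above the other 4, with day 6 the higher of them under total read or TPM scaling. SEMA5B had 6.81, 1.63, 5.11, 1.49, 1.04 and 4.03 FPKM and changed direction at day 3, at day 4 and again by day 30. SEMA7A, a lipid-anchored semaphorin that binds PLXNC1, lay between 3.89 and 8.01 FPKM and was called in no comparison.

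Plexins as a family stood at a summed 52.6 FPKM at day 0, 119.9 at day 2, 168 at day 3, 166 at day 4, 133 at day 6 and 232 at day 30. PLXNA2 (ENSG00000076356, chromosome 1, 208022242 to 208244320, minus strand), a receptor of class 3 and class 6 semaphorins, had 0.0799, 29.8, 54.1, 25.8, 9.51 and 1.87 FPKM. It had 6613 reads at day 2, against 16 at day 0. Its highest day was day 3, and it made up 0.807% of the plexin level at day 30, against 32.3% at day 3. PLXND1 (chromosome 3, 129555175 to 129606818, minus strand), the receptor of SEMA3E in vessels, had 7.12, 17.9, 26.4, 58.0, 18.1 and 18.4 FPKM. Its single high day was day 4, with 35.0% of the plexin level.

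PLXNB2 (ENSG00000196576, chromosome 22, 50274979 to 50307627, minus strand), a receptor of class 4 semaphorins, had 9.96, 24.7, 28.0, 21.4, 44.9 and 127 FPKM. At day 30 it was the highest of all 53 members and held 54.7% of the plexin level. PLXNA3, a partner of neuropilins, had 3.54, 6.30, 13.2, 13.5, 10.6 and 31.3 FPKM. PLXNA1, a receptor of class 3 and class 6 semaphorins, had 11.8, 18.6, 18.1, 17.7, 19.8 and 26.0 FPKM. Both were highest at day 30 as deposited, and PLXNA1 at day 6 with total read scaling. PLXNA4 (0.601, 0.762, 0.660, 0.186, 1.72 and 3.27 FPKM) and PLXNC1 (0.160, 0.308, 0.275, 0.845, 0.761 and 1.42 FPKM) remained low, with their highest day also at day 30. PLXNB1 lay between 18.7 and 28.1 FPKM and PLXNB3 between 0.154 and 1.07 FPKM, and neither was called in any comparison. Of the exonic bases of PLXNB3, 20.4% are shared with SRPK3 on the same strand. SRPK3 stood between 0.421 and 0.975 FPKM, and their reads may not be separable.

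Both neuropilins had their highest deposited level at day 4, with NRP1 highest at day 6 on TPM values. NRP1 (chromosome 10, 33177492 to 33336262, minus strand), co-receptor of SEMA3A and of VEGFA, had 0.430, 3.05, 6.44, 16.1, 14.3 and 12.9 FPKM. NRP2 (chromosome 2, 205681990 to 205798133, plus strand), co-receptor of SEMA3F, SEMA3G and VEGFC, had 1.89, 2.57, 16.6, 25.1, 19.8 and 7.85 FPKM. NRP1 stood above NRP2 on days 2 and 30 and below it on the other 4 days. The highest days of NRP2 and of its ligands SEMA3F and SEMA3G thus lay on days 3 and 4. SEMA3B and SEMA3C, which also act with neuropilins, were instead highest at day 30 as deposited, at 17.4 and 11.3 FPKM, when NRP2 had 7.85 FPKM.

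The Eph A receptors changed their leading gene between day 0 and day 2. EPHA1 (ENSG00000146904, chromosome 7, 143390289 to 143408892, minus strand) had 46.2, 22.6, 9.99, 9.72, 5.22 and 2.57 FPKM on the 6 days, each day lower than the one before. EPHA2 (ENSG00000142627, chromosome 1, 16124337 to 16156087, minus strand), the main receptor of EFNA1, had 8.41, 60.1, 58.9, 61.5, 15.5 and 17.0 FPKM. Its level was similar on days 2, 3 and 4 and lower on the other 3. EPHA1 made up 22.5% of the Eph A level at day 2, against 76.0% at day 0, and EPHA2 59.9% at day 2, against 13.8% at day 0. EPHA4, which binds ephrins of both types, had 1.06, 14.8, 21.3, 10.8, 11.3 and 1.70 FPKM and was high on the 4 days from day 2 to day 6. EPHA6 had 0.460, 1.06, 2.03, 3.55, 1.81 and 0.257 FPKM, with its highest day at day 4.

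The other Eph A receptors were low. EPHA3 lay between 0.0853 and 1.14 FPKM, EPHA7 between 0.421 and 2.51 FPKM, EPHA8 between 0.0453 and 1.04 FPKM and EPHA10, which lacks kinase activity, between 0.0342 and 0.447 FPKM. EPHA5 had at most 5 reads on any day and 0 reads on days 4 and 6, which allows up to 0.0176 FPKM at day 6 and 0.0193 FPKM at day 4 (3 reads, counting error only). The Eph A sum was 60.8, 100.4, 94.3, 86.5, 37.0 and 24.3 FPKM.

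Among the Eph B receptors, EPHB4 was steady while others came and went. EPHB4, the vein receptor of EFNB2, lay between 22.5 and 33.9 FPKM and was called in no comparison. EPHB3, a receptor of B-type ephrins, had 2.70, 20.2, 40.0, 21.9, 24.2 and 10.6 FPKM. EPHB2 had 0.825, 1.70, 5.38, 6.71, 18.1 and 4.90 FPKM. EPHB3 was thus highest at day 3 and EPHB2 at day 6. EPHB6, an Eph receptor without kinase activity, had 4.37, 2.20, 5.41, 10.3, 7.89 and 1.09 FPKM, highest at day 4 and lowest at day 30. EPHB1 lay between 0.391 and 1.64 FPKM. The Eph B sum was 32.1, 50, 76.7, 67.9, 84.5 and 43.0 FPKM, so the B type exceeded the A type at day 30 and the A type exceeded the B type at day 0.

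**Figure D3:**
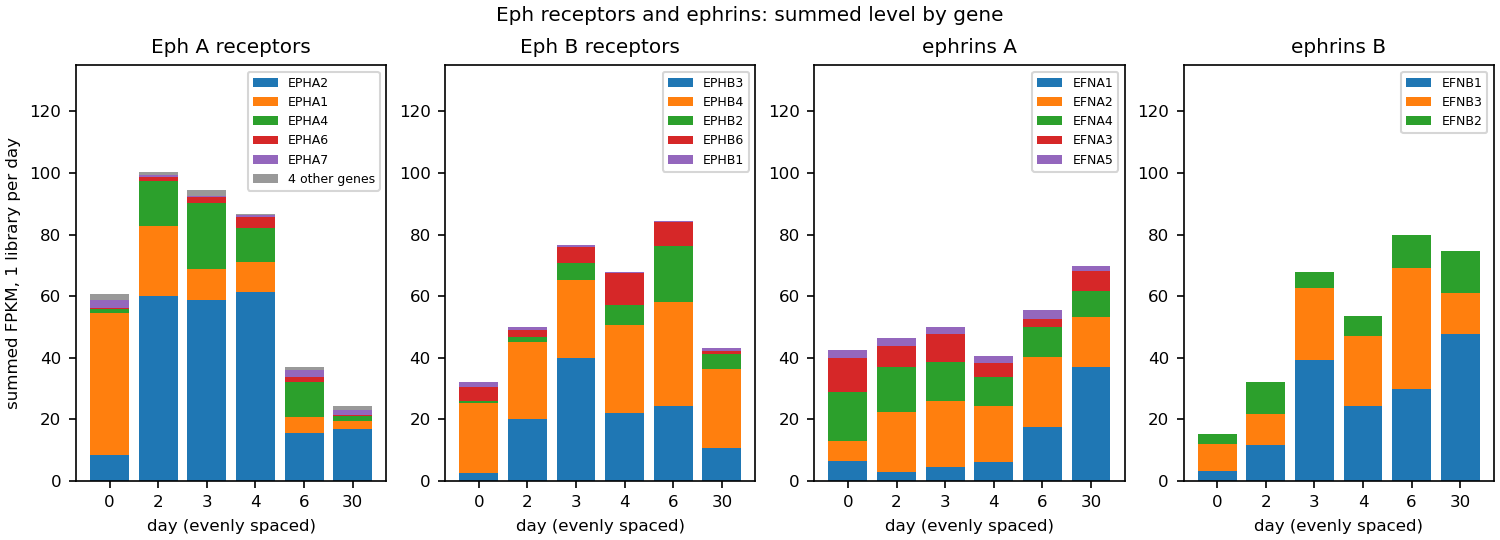
Summed FPKM of Eph A receptors, Eph B receptors, ephrins A and ephrins B by day (evenly spaced, 1 library each), stacked by gene. EPHA1 fills 76.0% of the Eph A bar at day 0 and EPHA2 71.1% at day 4, and the ephrin B bars stand at 74.6 FPKM at day 30, against 15.1 FPKM at day 0.

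Ephrin B ligands stood higher on every later day than at day 0. EFNB1 (chromosome X, 68828997 to 68842147, plus strand) had 3.20, 11.6, 39.3, 24.4, 29.9 and 47.7 FPKM on the 6 days. EFNB2, the artery ligand of EPHB4, had 3.18, 10.7, 5.10, 6.37, 10.7 and 13.7 FPKM. An antisense gene, AL138689.2, shares 26.2% of the exonic bases of EFNB2 and stood between 0.102 and 0.757 FPKM. EFNB3 had 8.74, 9.97, 23.4, 22.7, 39.3 and 13.1 FPKM. Day 6 was the highest day of EFNB3 and, as deposited, day 30 that of EFNB1 and EFNB2. With total read scaling, EFNB1 was highest at day 3 and EFNB2 at day 6. The ephrin B sum was 15.1, 32.2, 67.7, 53.4, 79.9 and 74.6 FPKM.

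Of the ephrin A ligands, EFNA1 (chromosome 1, 155127460 to 155134857, plus strand), the ligand of EPHA2, had 6.56, 2.79, 4.56, 6.01, 17.6 and 37.0 FPKM. It was lowest at day 2, and from day 3 on each day was higher than the one before. EPHA2 was at 17.0 FPKM at day 30, against 60.1 FPKM at day 2. EFNA2 had 6.31, 19.6, 21.5, 18.4, 22.6 and 16.3 FPKM. EFNA3 had 11.0, 6.80, 8.98, 4.57, 2.67 and 6.49 FPKM, and 44.7% of its exonic bases are shared with the gene AL691442.1 on the same strand, which had at most 0.182 FPKM. EFNA4 lay between 8.27 and 16.0 FPKM and EFNA5 between 1.83 and 2.66 FPKM, and neither was called. AL691442.1 also shares 15.0% of the exonic bases of EFNA4, on the same strand. EFNA1 made up 53.0% of the ephrin A level at day 30, against 15.5% at day 0.

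The steps between days were then compared, beginning with the exit from the stem cell state. At day 2 against day 0, 46 of the 53 members reached 1 FPKM in either library, 11 were higher and 4 lower. Among all 16019 genes tested, 8.78% were higher and 7.75% lower. The median difference in log2(FPKM + 1) was 0.37 over the members tested and -0.030 over all genes tested. Ranked by the difference in log2(FPKM + 1), as in each comparison, the 5 greatest rises were those of 3 Eph receptors, an ephrin and a plexin. PLXNA2 was 373-fold higher (229 to 653), EPHA4 14.0-fold (11.6 to 17.1), EPHA2 7.15-fold (6.52 to 7.86), EPHB3 7.47-fold (6.39 to 8.77) and EFNB1 3.63-fold (3.04 to 4.36). PLXNB2, PLXND1, EFNA2 and EFNB2 also rose, as did SEMA6D and NRP1, whose ratios of 21.2 (11.6 to 42.9) and 7.08 (5.53 to 9.18) exceeded that of EFNB1 at lower levels. The 4 that fell were SEMA3A, 6.06-fold lower (4.89 to 7.58), SEMA5B, 4.17-fold lower (3.595 to 4.85), SEMA6A, 2.65-fold lower (2.55 to 2.74), and EPHA1, 2.05-fold lower (1.93 to 2.18). The EPHA1 call was just past the rule, at a difference of -1.004, and was lost when libraries were scaled by total reads or to TPM.

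At day 3 against day 2, 8 of 43 members tested were higher and 2 lower, against 7.13% and 4.98% of 16149 genes. Their median difference was 0.50, beside -0.016 over all genes tested. SEMA3G was 18.3-fold higher (15.2 to 22.3), SEMA6D 8.75-fold (7.69 to 10.0), NRP2 6.47-fold (5.92 to 7.08), EFNB1 3.38-fold (3.08 to 3.71) and EPHB2 3.17-fold (2.80 to 3.59). SEMA3F, SEMA5B and EFNB3 rose as well. EPHA1 was 2.26-fold lower (2.07 to 2.47) and SEMA3E 2.34-fold lower (2.11 to 2.61). When levels were scaled to TPM, 16 were higher and 0 lower, and the EPHA1 and SEMA3E calls were lost.

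Day 4 against day 3 brought fewer member calls than any other step, 3 higher and 3 lower of 43 tested. In all, 4.23% of 16376 genes were higher and 3.59% lower. The median difference was -0.036 over the members tested and -0.0041 over all genes tested. SEMA3G was 2.36-fold higher (2.24 to 2.49), NRP1 2.50-fold (2.33 to 2.68) and PLXND1 2.19-fold (2.11 to 2.28), which are a ligand, a co-receptor and a plexin. SEMA6D was 3.14-fold lower (2.88 to 3.43), SEMA5B 3.44-fold lower (2.93 to 4.05) and PLXNA2 2.10-fold lower (2.04 to 2.17). On TPM values the split was 2 higher and 11 lower, and PLXND1 was no longer called.

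At day 6 against day 4, 6 of 45 members tested were higher and 5 lower, against 5.51% and 6.71% of 16727 genes. The median difference was 0.097 over the members tested and -0.0069 over all genes tested. SEMA5A was 7.59-fold higher (6.86 to 8.41), SEMA3C 8.44-fold (6.95 to 10.3), EFNA1 2.94-fold (2.54 to 3.41), EPHB2 2.69-fold (2.53 to 2.87) and PLXNA4 9.26-fold (6.87 to 12.7), and PLXNB2 rose too. The 5 that fell each had their highest level on day 3 or day 4. SEMA3G was 5.29-fold lower (4.94 to 5.67), EPHA2 3.97-fold (3.72 to 4.25), PLXND1 3.20-fold (3.07 to 3.33), PLXNA2 2.71-fold (2.58 to 2.85) and SEMA3F 2.16-fold (2.04 to 2.29). The SEMA3F call was lost with total read or TPM scaling, and the TPM split was 10 higher and 5 lower.

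Between day 30 and day 6, 9 of 47 members tested were higher and 11 lower, against 21.0% and 15.3% of 18023 genes. The median difference was -0.13 over the members tested and 0.077 over all genes tested. Higher were SEMA4B, 5.17-fold (4.84 to 5.54), SEMA6D, 4.38-fold (4.08 to 4.72), SEMA3B, 4.09-fold (3.66 to 4.58), PLXNB2, 2.83-fold (2.74 to 2.92), and PLXNA3, 2.95-fold (2.80 to 3.11). SEMA4C, SEMA5B, EFNA1 and EFNA3 rose as well. On the log2 scale the greatest falls were those of SEMA3G, 19.0-fold lower (13.8 to 27.1), SEMA3F, 7.0-fold (5.99 to 8.22), EPHA4, 6.66-fold (5.65 to 7.89), EPHB6, 7.21-fold (5.65 to 9.31), and PLXNA2, 5.09-fold (4.52 to 5.74). EPHA6, at a low level, was 7.04-fold lower (4.44 to 11.8). SEMA4G, NRP2, EPHB2, EPHB3 and EFNB3 also fell, so that 5 of the 11 falls were Eph receptors and none of the rises was. Of 5 Eph A receptors tested 2 fell, and of 4 Eph B receptors 3, beside 15.3% of all genes. These are few genes, and the EPHA6 call was lost with a minimum of 5 FPKM. With total read scaling the split was 6 higher and 13 lower, without the calls of SEMA5B, EFNA1 and EFNA3, and on TPM values it was 8 and 15.

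Over the whole course, at day 30 against day 0, 21 of 48 members tested were higher and 6 lower. Of all 17874 genes tested, 25.9% were higher and 19.1% lower. The median difference was 0.71 over the members tested, 0.41 over all 53 members and 0.13 over all genes tested. Plexins (7 of 9 higher, 0 lower) and neuropilins (2 of 2 higher) made up 9 of the 21 rises. The 5 greatest rises and falls on the log2 scale follow. SEMA6D was 327-fold higher (183 to 656), PLXNB2 12.7-fold (11.9 to 13.6), EFNB1 14.9-fold (12.7 to 17.7), SEMA3C 171-fold (78.2 to 467) and NRP1 30.1-fold (23.8 to 38.6). EPHA1 was 18.0-fold lower (15.3 to 21.4), SEMA3E 17.7-fold (14.4 to 21.8), SEMA3F 6.53-fold (5.57 to 7.68), SEMA6A 5.10-fold (4.84 to 5.37) and EPHB6 3.99-fold (3.09 to 5.22), and SEMA4D was the other that fell. PLXNA2, at 1.87 FPKM, was 23.4-fold higher (14.2 to 41.4), and SEMA3B was 14.0-fold higher (11.5 to 17.3). SEMA4B, SEMA4C, SEMA5A, PLXNA1, PLXNA3, PLXNA4, PLXNC1, PLXND1, NRP2, EPHB2, EPHB3, EFNA1, EFNA2 and EFNB2 also rose. No Eph A receptor was among the rises. The PLXNA1 and PLXNC1 calls were lost with total read scaling. With a minimum of 5 FPKM the calls of PLXNA2, PLXNA4, PLXNC1, EPHB2 and EPHB6 were lost. The calls in this comparison rest on 2 libraries that each also enter another comparison, day 0 with day 2 and day 30 with day 6.

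**Figure D4:**
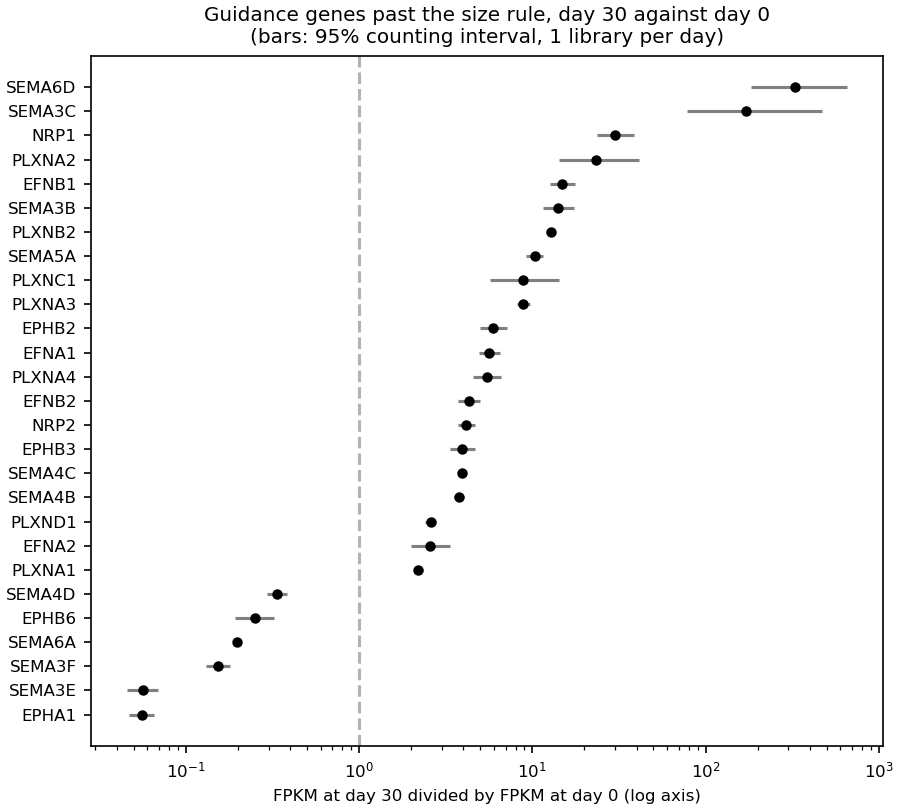
Ratio of FPKM at day 30 to FPKM at day 0 (log axis) for the 27 guidance genes called in that comparison, 1 library per day, with bars for the 95% counting interval. The 21 genes that were higher lie right of the dashed line at 1, led by SEMA6D at 327, and the 6 that were lower lie left of it, down to EPHA1.

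**Figure D5:**
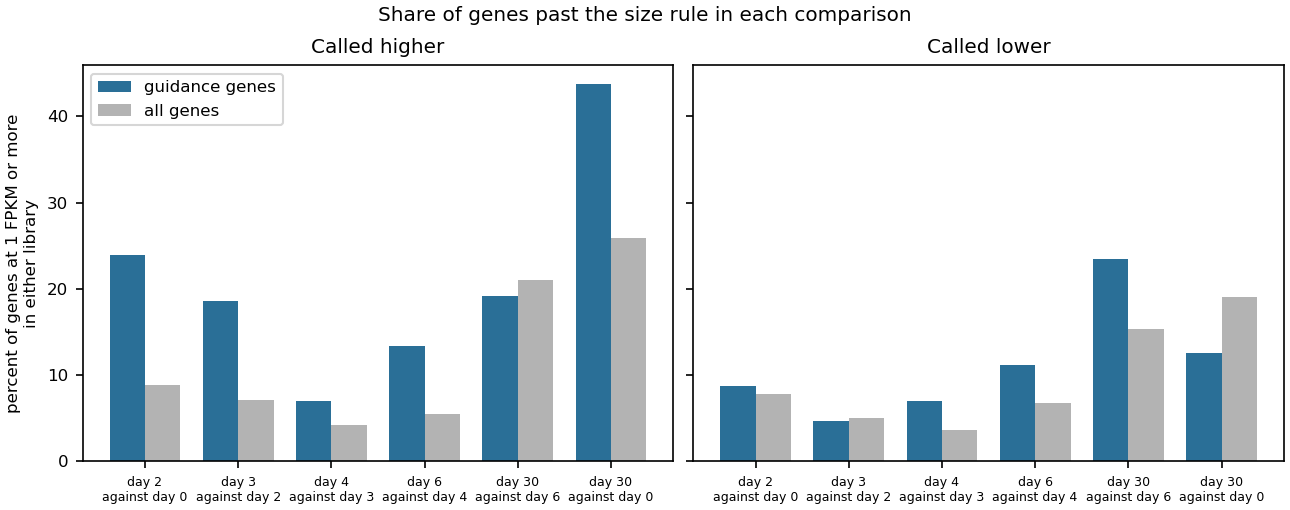
Percent of tested genes called higher (left) and lower (right) in each comparison, for the guidance genes and for all genes, 1 library per day. Guidance genes were called higher in 23.9% of those tested at day 2 against day 0, beside 8.78% of all genes, and in 19.1% at day 30 against day 6, beside 21.0%.

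The day of highest level was counted for the 40 members whose lowest and highest days differed by enough to be called. Day 0 held 8 of them, day 2 held 0, day 3 held 6, day 4 held 7, day 6 held 5 and day 30 held 14. Days 3 and 4 thus held 15.0% and 17.5% of these members, beside 6.36% and 7.44% of the 8883 protein-coding genes that passed the same rule. Day 30 held 35.0% of the members and 39.2% of the protein-coding genes, and day 2 held 0 members, against 11.5%. With total read scaling, day 6 and day 30 held 8 members each, counted over the members that passed the rule on that scaling. Among the deposited 40, which are not all the same members, the highest day moved for 5 with that scaling. SEMA3C, SEMA5A, PLXNA1 and EFNB2 moved to day 6 and EFNB1 to day 3. On TPM values it moved for 6 of the deposited 40, SEMA3C, SEMA5A, NRP1 and EPHA7 to day 6, and EPHA2 and EFNA3 to day 3. The members of days 3 and 4 as deposited were SEMA3F, SEMA4A, SEMA6B, PLXNA2, EPHA4 and EPHB3, and SEMA3G, PLXND1, NRP1, NRP2, EPHA2, EPHA6 and EPHB6. They include both neuropilins, though NRP1 moved to day 6 on TPM values, and 5 of the 14 Eph receptors. Of all 40 members, 15.0% were highest on day 3 and 17.5% on day 4. The 14 include receptors that are not among the 40, and no difference between families was tested.

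Members that lie near each other in the genome were highest on the same day in some cases and on different days in others. SEMA3F and SEMA3B, 78483 bases apart on chromosome 3, were highest at day 3 and day 30. EFNA4, EFNA3 and EFNA1 lie on chromosome 1 with gaps of 9319 and 39922 bases, and their levels at day 30 were 8.27, 6.49 and 37.0 FPKM, against 16.0, 11.0 and 6.56 FPKM at day 0. EPHA8 and EPHB2, 107245 bases apart on chromosome 1, were highest at day 0 and day 6. EPHA8 had at most 1.04 FPKM, however, and its lowest and highest days did not differ by enough to be called. SEMA3E and SEMA3A, 306664 bases apart on chromosome 7, were both highest at day 0. Chromosomes 3, 1 and 7 carry 11, 10 and 8 of the 53 members.

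Other genes of these pathways were taken from 4 lists, whose counts stand beside 25.9% higher and 19.1% lower over all genes tested at day 30 against day 0. Among VEGF ligands and receptors, which share the neuropilins, 4 of 6 tested of 8 listed were higher at day 30 than at day 0 and 0 were lower, with a median difference of 2.42. All 4 were ligands, and no receptor of the list was called. VEGFA had 128 FPKM at day 30 and 13.2 FPKM at day 0, which is 9.72-fold higher (9.34 to 10.1). VEGFC had 11.5 FPKM at day 30 and 0.427 FPKM at day 0, which is 26.9-fold higher (16.1 to 48.6). Mediators of semaphorin signals had 4 higher and 2 lower of 19 tested of 20, with a median of 0.52, so that neither share of the list exceeded that of all genes. MICAL2, an enzyme that oxidises actin, had 22.0 FPKM at day 30 and 0.0511 FPKM at day 0, a ratio of 431 (261 to 770). The small GTPase RND1, a plexin partner, had 13.9 FPKM at day 30 and 1.37 FPKM at day 0. The collapsin response mediators DPYSL3 (33.2 FPKM at day 30 and 135.1 FPKM at day 0) and CRMP1 (9.59 FPKM at day 30 and 20.9 FPKM at day 0) fell.

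Mediators of Eph signals had 1 higher and 2 lower of 12 tested of 14, with a median of -0.015. The scaffold protein PDZK1 had 2.28 FPKM at day 30 and 0.305 FPKM at day 0. The exchange factor VAV3 had 0.223 FPKM at day 30 and 2.55 FPKM at day 0, and the Rac regulator CHN1 1.24 FPKM at day 30 and 5.62 FPKM at day 0. Of 21 netrin, slit and RGM guidance genes, 15 were tested, 5 were higher and 3 lower, with a median of 0.37. The secreted SLIT3 had 13.1 FPKM at day 30 and 0.188 FPKM at day 0, and the netrin receptor UNC5C had 3.03 FPKM at day 30 and 0.0515 FPKM at day 0. UNC5D, a relative of UNC5C, had 0.210 FPKM at day 30 and 14.3 FPKM at day 0, which is 68.0-fold lower (46.9 to 103). DRAXIN, a secreted netrin antagonist, had 0.165 FPKM at day 30 and 5.61 FPKM at day 0. All genes tested in this comparison had a median of 0.13.

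Levels of cell type markers moved over the same days. Summed levels on the 6 days were 9.82, 18.4, 42.2, 37.2, 52.7 and 38.1 FPKM for 10 endothelial genes, of which EMCN was at 0 from day 0 to day 4 and PECAM1 at day 0. At day 3 this sum was EGFL7 at 20.7 FPKM and VWF at 20.3 FPKM, and no other gene of the list passed 0.302 FPKM. At day 30 against day 6, the endothelial genes CDH5, TIE1 and VWF fell and 0 rose. For 8 cardiomyocyte genes the summed levels were 4.92, 6.35, 9.65, 14.0, 359 and 209.9 FPKM. MYL7 alone had 64.0 FPKM at day 30 and 336 FPKM at day 6. It was the 1 gene of the 8 that fell between these days, while ACTN2, MYH6, MYH7 and NPPA rose, with a list median of 1.08. For 8 fibroblast and mural genes they were 12.9, 20.8, 56.4, 137, 662 and 5547 FPKM, with DCN at 0 up to day 3 and COL3A1 and LUM at 0 on days 0 and 2. COL3A1 alone had 4173 FPKM at day 30. For 7 endoderm and liver genes they were 0.166, 121, 262, 288, 426 and 488 FPKM. AFP alone had 299 FPKM at day 30 and 1.10 FPKM at day 6, and ALB rose too. APOA1, FOXA2, HNF4A and SOX17 fell between these days, with a list median of -1.07. The epicardial sum of 6 genes was 35.8 FPKM at day 30 and 0.687 FPKM at day 0. The 8 neuron genes summed to 37.96 FPKM at day 30, their highest, and 3.29 FPKM at day 6, their lowest, 6 neural crest and Schwann genes to 14.8 FPKM at day 30, their lowest, and 55.9 FPKM at day 0, their highest, and 5 blood and macrophage genes to at most 2.56 FPKM. At day 30 against day 0, where 25.9% of all genes tested were higher and 19.1% lower, the genes called higher of those tested were 4 of 4 endothelial, 7 of 8 cardiomyocyte, 8 of 8 fibroblast and mural, 3 of 4 epicardial, 2 of 4 neuron, 0 of 5 neural crest and 7 of 7 endoderm genes. The endothelial PECAM1 call was just past the rule, at 1.002 FPKM at day 30 and a difference of 1.001. Called lower were 2 of 4 neuron, 2 of 5 neural crest and 7 of 7 pluripotency genes. The genes not tested, 6 of the 10 endothelial ones among them, were below 1 FPKM on both days. The part of these changes in the guidance gene results was not tested.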

How the data were processed

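RNA sequencing was done on 6 libraries of H9 cells, 1 per time point. The authors deposited 1 table of FPKM values with gene lengths and classes. The submitters' processing notes name CASAVA, HISAT2 and featureCounts 1.5.0-p3. The sources used here do not give the settings, the build or whether strand was used, so reads of overlapping or antisense genes may not be separated. Starts, ends and strands of all 58735 genes equal GENCODE release 29 on GRCh38.

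FPKM times gene length gave whole reads, within 0.01 read, for 100% of values above 0. Library denominators lay between 0.826 times the total of recovered reads (day 30) and 1.12 times (day 6). In a gene 1 kilobase long, a single read is worth between 0.0578 FPKM (day 6) and 0.0809 FPKM (day 30).

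Differences were taken on log2(FPKM + 1), a scale that understates changes of low genes. Calls were made on all genes with at least 1 FPKM in either library. Every member is named, with all 6 values if called in any comparison and folds for the 5 greatest rises and falls. From the 4 pathway lists, up to 2 rises and 2 falls are named. Members and lists were chosen with earlier results of these data known. The call and interval steps were tested on simulated reads with 200 changed genes. Those reads carried counting error only and no changes near the call limit. That test therefore does not cover variation between cultures or calls just past the rule. Alternatives were another pseudocount, other minimums, 3 scalings and a call that needs the counting interval to exclude 1. Python 3.11.15, numpy 2.4.6, pandas 2.3.3 and scipy 1.17.1 were used.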

Additional observations from a re-analysis of the deposited data

How the results depend on the processing

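The 6 comparisons held 89 calls of guidance genes. None of them changed sign under the 7 alternatives, which could not reverse calls of this size. All 89 were kept with a pseudocount of 0.1 and without a minimum, but neither setting can remove a call under this rule. All 89 were also kept with median-of-ratios scaling, whose factors lay only between 0.9945 and 1.009, and with intervals that exclude 1. With total read scaling 82 were kept, with TPM scaling 82 and with a minimum of 5 FPKM 78. With a pseudocount of 0.1, the lower calls numbered 8 at day 2 against day 0, 5 at day 4 against day 3 and 10 at day 30 against day 0, and the higher calls 14 at day 3 against day 2. With TPM scaling, 16 were higher and 0 lower at day 3 against day 2, 11 lower at day 4 against day 3 and 10 higher at day 6 against day 4. That scaling multiplies all values by between 3.43 and 4.44, so a pseudocount of 1 weighs less. Highest levels fell on day 6 for 8 members with total read scaling, 11 with TPM scaling and 12 without day 30, and on day 30 for 8 with total read scaling. The median of all genes tested moved by -0.36 at day 30 against day 6 with total read scaling and by -0.28 with TPM scaling, and by 0.22 at day 3 against day 2 with TPM scaling. The summed level of all members at day 30 was 1.23 times that at day 6, but 0.903 times with total read scaling and 0.992 times with TPM scaling. No paired analysis was possible because each day had 1 library. Depth limits genes with few reads, such as EPHA5.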
